A study of Mus musculus with 12 samples.

Results

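The genes described here are 8 regulators and markers of the step at which undifferentiated spermatogonia commit to differentiation, namely *Kit*, *Stra8*, *Sohlh1*, *Sohlh2*, *Dmrt1*, *Dmrtb1*, *Dazl* and *Rhox13*. They were chosen by name, and all 8 were found by gene symbol among the 21859 genes of the expression table. RNA-seq had been carried out on GFRa1+/KIT- spermatogonia of adult GFRa1-EGFP mice, aged 8 to 10 weeks, whose genotype is labelled WT, and the question was which mRNAs differ when the testis is held in the body cavity. One testis of a mouse was fixed in the abdomen by surgery and the other stayed in the scrotum. The table holds 5 control and 7 cryptorchid libraries, all from day 10 after surgery, as log2 RPM (reads scaled to the library total).

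Some features of the model set limits on every value. EGFP in these mice follows *Gfra1*, the gene of the GDNF co-receptor on stem cells and early progenitors. As the sort removed cells with KIT on their surface, it was aimed at cells before or at the start of the switch. Transcripts of later germ cells were also found in the libraries, as given below. Control testes were digested at 32°C and cryptorchid testes at 37°C, and the condition and the digestion temperature cannot be told apart. Each library started from some 1000 sorted cells, with RNA worth 200 of them entering Smart-seq2, a full-length cDNA method without molecular identifiers. Neither the mouse behind each library nor whether mice were pooled is stated, so *P*-values measure the spread between these libraries. As the libraries are bulk samples, fewer cells with a transcript and less transcript per cell cannot be told apart.

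Spermatogonia leave the undifferentiated state in waves set by retinoic acid, which is made in the seminiferous tubule and acts through nuclear receptors. The switch brings KIT to the cell surface, where it receives stem cell factor, and induces *Stra8*, a gene that is used again when germ cells enter meiosis. The transcription factors SOHLH1 and SOHLH2 promote this step. The DM domain factors DMRT1 and DMRTB1 (also DMRT6) govern the balance between mitosis and meiosis, and DMRT1 is known to bind near *Stra8* and hold it down in spermatogonia. DAZL is a germ cell RNA-binding protein, and *Rhox13* is a homeobox gene on the X chromosome that responds to retinoic acid.

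The sequences in front of these genes show the letters that such factors read. RefSeq promoter windows on GRCm38.p6 were matched for 7 of the 8 genes, and *Dmrt1* was not matched. The 250 bases before each RefSeq start were searched on both strands for AGGTCA (the core letters of retinoic acid receptor sites), CANNTG (the E-box read by bHLH factors such as SOHLH1 and SOHLH2) and ACANTGT (the core read by DM domain factors). *Stra8* (chr6:34920163-34939344, plus strand) held AGGTCA at 2 places, which end 189 and 33 bases before the start, and ACANTGT at 1 place, which ends 139 bases before it. The whole *Stra8* window lies within an exon of a transcript that GENCODE starts 785 bases further upstream, so 30 bases around each match are shown, 5′ to 3′ on the plus strand with the match in capitals.
Stra8, chr6:34920742-34920771: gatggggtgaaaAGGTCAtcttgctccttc
Stra8, chr6:34920791-34920820: tggcaagttgttACAATGTtttcaccaatg
Stra8, chr6:34920898-34920927: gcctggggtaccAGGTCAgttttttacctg

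The windows of *Sohlh1* and *Dmrtb1* are shown because *Sohlh1* held the most matches of the 7 genes and because *Dmrtb1* was lower in cryptorchid libraries within each technical set described below. *Sohlh1* (chr2:25842995-25847248, minus strand) held 5 E-boxes, of which 3 read CACGTG and 2 read CAGGTG, together with 1 AGGTCA and 1 ACAGTGT. The AGGTCA runs into the second CACGTG, so these 2 matches share letters. *Dmrtb1* (chr4:107676290-107684230, minus strand) held 2 E-boxes, both CAAGTG, and neither of the other motifs. Both windows are on the minus strand, with every match in capitals.
Sohlh1, chr2:25847249-25847498: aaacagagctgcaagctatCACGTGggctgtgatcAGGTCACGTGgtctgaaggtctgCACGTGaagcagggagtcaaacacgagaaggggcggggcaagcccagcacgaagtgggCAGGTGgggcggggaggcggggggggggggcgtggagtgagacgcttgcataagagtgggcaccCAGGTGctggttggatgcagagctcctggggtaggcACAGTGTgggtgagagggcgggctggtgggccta
Dmrtb1, chr4:107684231-107684480: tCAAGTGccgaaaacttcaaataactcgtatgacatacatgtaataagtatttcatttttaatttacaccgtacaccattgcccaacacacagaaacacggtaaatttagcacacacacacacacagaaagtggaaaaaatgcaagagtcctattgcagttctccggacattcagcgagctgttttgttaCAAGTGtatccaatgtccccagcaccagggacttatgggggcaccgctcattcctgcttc

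*Sohlh2*, *Dazl* and *Rhox13* held 1 E-box each and *Kit* held none of the 3 motifs. Over all 32851 RefSeq windows of the same length, 14.0% held AGGTCA, 66.2% held CANNTG and 6.47% held ACANTGT, so an E-box alone is common. A match describes letters in the window and is neither a binding site nor a cause of any value below.

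Reads on genes ranged from 4511730 to 24345368 in the control libraries and from 3306771 to 20027902 in the cryptorchid libraries. The libraries fell into 2 technical sets that follow the replicate number, called set 1 (replicates 1 to 3 of both groups) and set 2 (replicates 4 and above, 2 control and 4 cryptorchid). Among genes covered by 1 to 20 reads, even read numbers made up 53.2% to 60.8% in set 1 and 48.2% to 50.5% in set 2. What separates the sets is not stated, and within-set values stand beside the results. The least covered member, *Dmrtb1*, had 24 to 434 reads per library and the most covered, *Dazl*, had 3779 to 30368, so no member was at 0. Read numbers give counting error only.

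The markers of the sorted population were present. The control mean of *Gfra1* was 7.88 ± 0.884 log2 RPM (SD, n=5), and the cryptorchid mean was 8.40 ± 0.704 (SD, n=7). Transcripts of other testicular cells were also found, and those of spermatids moved with the condition. The summed level of the 6 spermatid genes ranged from 475 to 2618 RPM in control and from 13.5 to 1771 RPM in cryptorchid libraries, with all 6 at lower means in cryptorchid and 2 of 6 called lower (*Prm1* and *Prm2*, the protamines that pack sperm DNA). With a library left out 2 to 4 were called lower, with *Tnp1* added without control replicate 2 or cryptorchid replicate 4 and both *Tnp1* and *Tnp2* without cryptorchid replicate 6, and set 1 alone gave 4. Of the 6 genes *Prm2* alone had a control mean above that of *Gfra1*, at 9.32 log2 RPM, and its cryptorchid mean was 5.59. The part of spermatid transcripts in the results below was not tested. The summed levels of the 7 Leydig cell genes (6.18 to 47.8 RPM over the 12 libraries), the 5 peritubular myoid genes (0.714 to 16.5), the 6 macrophage genes (3.62 to 36.6), the 7 mast cell genes (1.11 to 13.2) and the 5 endothelial genes (10.0 to 47.5) were low. In these lists *Des*, *Mrc1*, *Cdh5* and *Vwf* were called higher and no gene was called lower, and 1 of the 2 endothelial calls was lost without control replicate 2, 3 or 4 or cryptorchid replicate 1. Mast cells also bear KIT, and of their 7 genes *Cma1*, *Mcpt4*, *Tpsb2* and *Fcer1a* were at 0 reads in all libraries, while *Hdc* had 3 to 111 reads in every library, *Cpa3* had up to 121 reads and was at 0 in 7 of the 12 libraries, and *Ms4a2* had 15 reads in 1 library. The 10 Sertoli cell genes summed to 46.2 to 252 RPM in control and 42.2 to 247 RPM in cryptorchid libraries, with *Gata1* called higher. *Clu* (210 to 1021 reads), *Wt1* (9 to 417), *Gata4* (19 to 294), *Sox9* (5 to 100) and *Inha* (4 to 118) were found in every library, and *Amh*, which marks immature Sertoli cells, was at 0 reads in 10 of the 12. The part of these cells in the results below was not tested.

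*Stra8* mRNA was higher in cryptorchid GFRa1+/KIT- spermatogonia, and it was the only member that passed the call used here (2-fold and unadjusted limma *P* under 0.05). In the control libraries it was at 6.13, 5.52, 5.48, 6.47 and 6.26 log2 RPM in replicates 1 to 5. In the cryptorchid libraries the lowest value was 6.11, the median 7.21 and the highest 7.70 log2 RPM. Of the 7 cryptorchid libraries 5 lay above every control library, and replicates 2 and 3 lay within the control range. The means were 5.97 ± 0.446 (SD, n=5) and 7.06 ± 0.671 (SD, n=7) log2 RPM. The difference of 1.09 (SE 0.325) is 2.12-fold, with a 95% interval of 1.32- to 3.41-fold and an unadjusted limma *P* of 0.00371. The Benjamini-Hochberg adjusted *P* over all 16932 genes tested was 0.273, so in this fit *Stra8* did not pass a correction for all genes, where its *P* ranked 230th from the smallest. The exact two-sided rank sum test gave *P*=0.0480, where the smallest value that 5 against 7 libraries can give is 0.00253.

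The direction for *Stra8* was the same in both technical sets, with a log2 difference of 0.75 in set 1, where the groups overlapped, and 1.14 in set 2, where they did not. When libraries were exchanged only within sets, the exact rank sum *P* was 0.0100. The log2 difference was above 0 in all 23 alternatives run and reached 2-fold in 16 of them. It fell just under 2-fold without control replicate 2 (0.97), control replicate 3 (0.96), cryptorchid replicate 4 (0.98) or cryptorchid replicate 5 (0.98), so the call at 2-fold rests on each of these libraries while the limma *P* stayed under 0.05 without any one of them. The exact rank sum *P* ranged from 0.0173 to 0.109 over the 12 libraries left out in turn and exceeded 0.05 without control replicate 1, 2 or 3 or cryptorchid replicate 1, 4, 5, 6 or 7.

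That 1 of 8 members was called higher and 0 of 8 lower is to be read beside all genes. Of the 16932 genes tested, 3.56% were called higher and 2.36% lower. The 8 members all passed the filter on low values. At an unadjusted *P* under 0.05 alone, 9.48% of all genes and 1 of 8 members passed. An adjusted *P* under 0.05 was reached by 0.0118% of all genes and by no member.

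**Figure D1:**
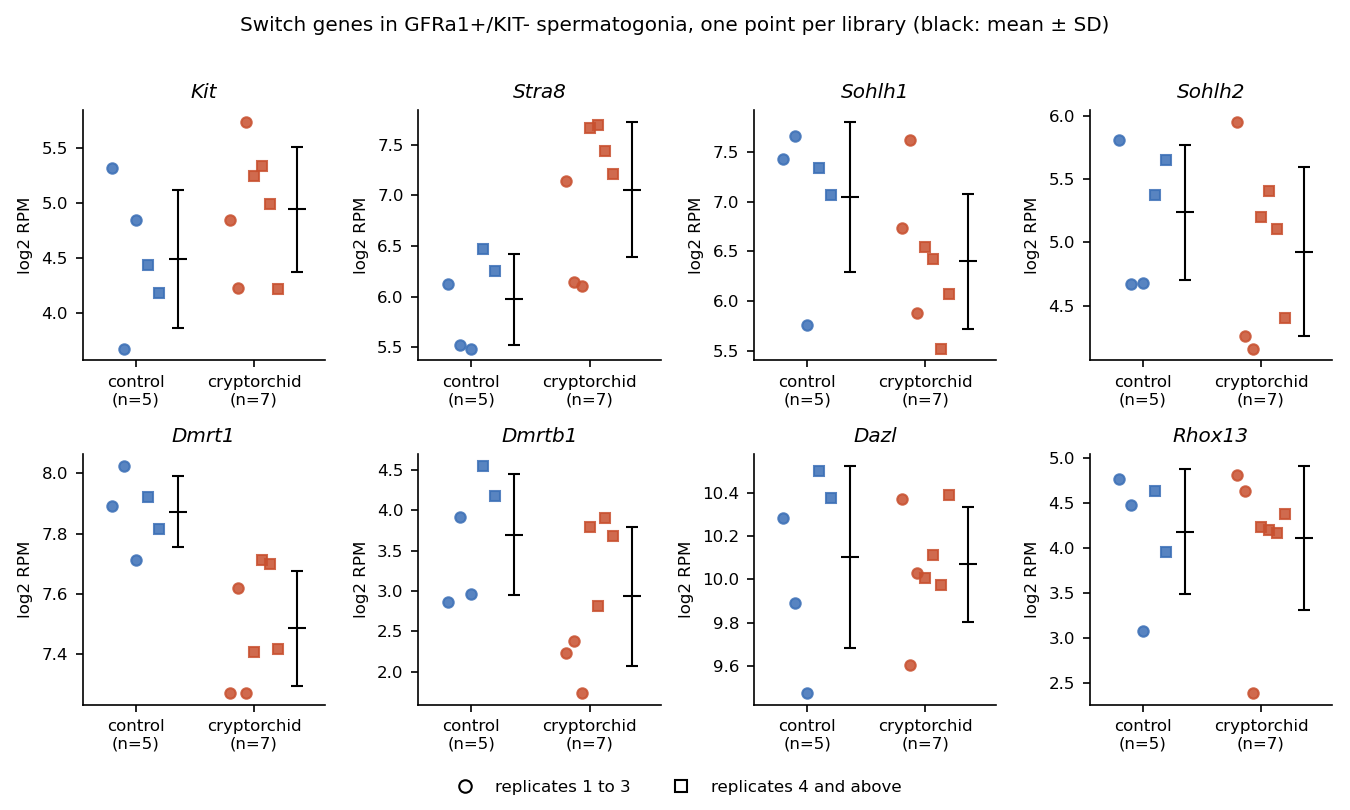
Levels of the 8 genes in log2 RPM (y axes, each with its own range) in the 5 control (blue) and 7 cryptorchid (red) libraries. Circles are replicates 1 to 3, squares are replicates 4 and above, and black bars give the mean ± SD. For *Stra8* 5 of 7 cryptorchid points lie above all control points, and for *Dmrt1* 6 of 7 lie below them.

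*Kit*, the receptor of stem cell factor and the surface antigen used against differentiating cells in the sort, was detected in every library with 82 to 969 reads. It was at 5.31, 3.67, 4.85, 4.44 and 4.18 log2 RPM in control replicates 1 to 5, and the cryptorchid libraries had a lowest value of 4.22, a median of 4.99 and a highest value of 5.74. The groups overlapped broadly, with 2 of 7 cryptorchid libraries above the highest control. The mean difference was 0.45 (SE 0.359, exact rank sum *P*=0.268) and its limma 95% interval ran from 0.811- to 2.31-fold, which takes in both equal levels and a 2-fold rise. With a library left out it ran from 0.25 (without control replicate 2) to 0.66 (without control replicate 1). The direction was the same in set 1 (0.32) and set 2 (0.64). The sort gates on KIT protein in both groups, so the *Kit* mRNA level is that of cells chosen for lack of surface KIT. The study checked sorted cells by qRT-PCR of marker genes, *Kit* among them, and reported high enrichment for undifferentiated spermatogonia. The stringency of the sort was not tested here. *Kit* lies at chr5:75574916-75656722 on the plus strand.

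The bHLH pair that promotes differentiation had lower means in the cryptorchid group, and neither member passed the test. *Sohlh1* was at 7.43, 7.66, 5.76, 7.34 and 7.07 log2 RPM in control replicates 1 to 5. In cryptorchid replicates 1 to 7 it was at 6.74, 7.62, 5.88, 6.54, 6.43, 5.52 and 6.08 log2 RPM. In both groups replicate 2 was the highest library, and replicate 3 was the lowest of the control and the second lowest of the cryptorchid libraries. The mean difference was −0.65 (SE 0.368, limma adjusted *P*=0.603), with a 95% interval of 0.373- to 1.09-fold and an exact rank sum *P* of 0.202.

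The value for *Sohlh1* depended on the libraries used. In set 1 the log2 difference was −0.20 and the groups overlapped, while in set 2 it was −1.06 with no overlap. Without control replicate 3 it was −0.97 and the exact rank sum *P* was 0.0424, so this library decides whether that test passes 0.05. Without cryptorchid replicate 2 the difference was −0.85 and the exact rank sum *P* was 0.0823. The unadjusted limma *P* was 0.00878 without control replicate 3 and 0.0210 without cryptorchid replicate 2, against 0.0947 with all libraries, so each of these libraries decides on which side of 0.05 it lies. No library left out turned the direction. The difference between the sets was not tested. *Sohlh2* (chr3:55182028-55209957, plus strand), whose protein pairs with SOHLH1, differed by −0.31 (SE 0.358, exact rank sum *P*=0.432), from a control range of 4.67 to 5.81 to a cryptorchid range of 4.16 to 5.95 log2 RPM that enclosed it. Its difference ran from −0.48 (without cryptorchid replicate 1) to −0.16 (without control replicate 1) with a library left out.

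The means of *Stra8* and *Sohlh1* differed between the groups with opposite sign, where *Sohlh1* did not pass the test. The gap between both genes was read within each library per kb of exon. *Stra8* was below *Sohlh1* in all 5 control libraries, by 0.76 to 2.62 on the log2 scale per kb (median 1.35). In the cryptorchid libraries the gap of *Stra8* over *Sohlh1* ran from −1.96 to 1.43 (median 0.64), and 6 of 7 lay above every control. *Stra8* exceeded *Sohlh1* in 4 of 7 cryptorchid libraries, which are the 4 of set 2, and in 0 of the 3 of set 1. The mean gap was higher in cryptorchid by 0.95 in set 1 and by 2.20 in set 2. This pair was chosen after its values were seen, and the gap is given as a description without a test.

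**Figure D2:**
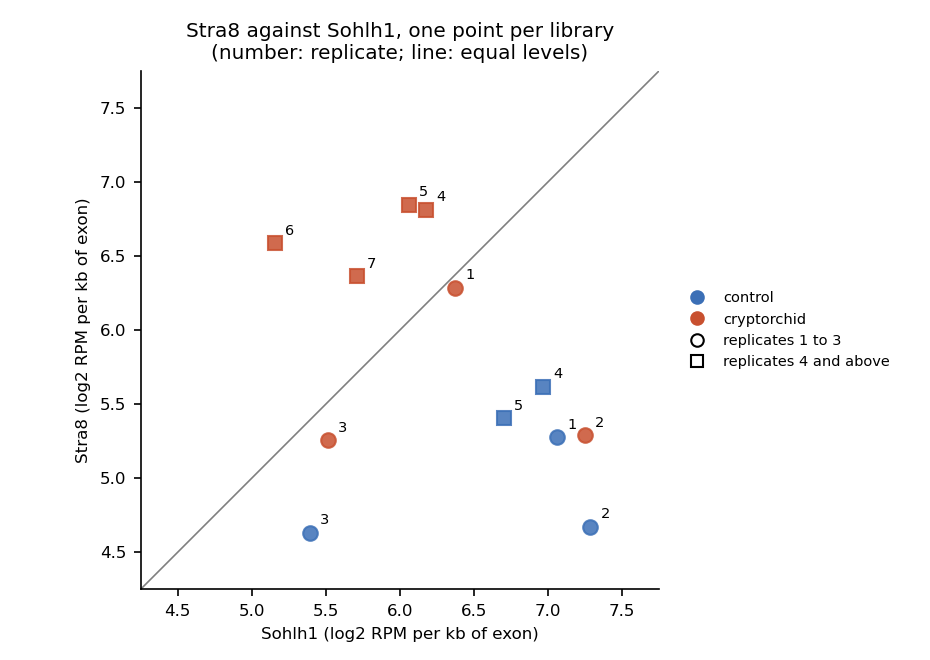
*Stra8* against *Sohlh1* within each library, both in log2 RPM per kb of exon. Blue is control and red is cryptorchid, the number is the replicate, circles are replicates 1 to 3, squares are replicates 4 and above, and the line marks equal levels. All 5 control libraries lie below the line, and the 4 cryptorchid libraries above it are replicates 4 to 7.

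The DM domain members *Dmrt1* and *Dmrtb1* had lower values in cryptorchid libraries within each technical set. *Dmrt1* (chr19:25505618-25604329, plus strand) was the most even member, at 7.89, 8.03, 7.71, 7.92 and 7.82 log2 RPM in control replicates 1 to 5. The cryptorchid libraries were at 7.27, 7.62, 7.27, 7.41, 7.71, 7.70 and 7.42 log2 RPM in replicates 1 to 7. In 6 of 7 cryptorchid libraries *Dmrt1* was below every control library, and replicate 5 lay just above the lowest control. The means were 7.87 ± 0.117 (SD, n=5) and 7.49 ± 0.191 (SD, n=7) log2 RPM. The difference of −0.39 is a 1.31-fold lower level, with a 95% interval for the cryptorchid to control ratio of 0.562 to 1.04.

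The tests of *Dmrt1* fell on different sides of 0.05. The exact two-sided rank sum test gave *P*=0.00505 and the exact permutation test of the means gave *P*=0.00758, and the exact rank sum *P* stayed between 0.00433 and 0.0121 with any library left out. The limma *P* was 0.0850 (adjusted 0.591), as its standard error of 0.212 is drawn towards the spread of genes of like level and is larger than either group's SD. The log2 difference was −0.49 in set 1 and −0.31 in set 2, with no overlap in either. No member had groups that did not overlap over all 12 libraries, which held for 0.839% of all genes.

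*Dmrtb1*, whose product acts at the exit from the mitotic divisions, was the least covered member. Its control libraries were at 2.87, 3.92, 2.97, 4.55 and 4.18 log2 RPM in replicates 1 to 5, and its cryptorchid libraries at 2.24, 2.38, 1.74, 3.79, 2.81, 3.90 and 3.68 in replicates 1 to 7. All 7 cryptorchid libraries were below the control median, and 4 of 7 below every control. The groups overlapped over all libraries but not within set 1 (log2 difference −1.14) or within set 2 (−0.82). Over all libraries the difference was −0.76 (SE 0.511, limma adjusted *P*=0.672, exact rank sum *P*=0.0732). With a term for the set it was −0.99, just short of 2-fold, and its unadjusted limma *P* went from 0.152 to 0.0275 (limma adjusted *P*=0.372). The exact rank sum *P* within sets was 0.00667 for both *Dmrt1* and *Dmrtb1*, from only 300 splits. Groups that were lower in cryptorchid without overlap in both sets were found for 2 of 8 members and for 1.18% of all genes, and higher ones for 0 of 8 members and 1.24% of all genes. Without control replicate 1 or 3 the exact rank sum *P* of *Dmrtb1* over all libraries was 0.0424.

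*Dazl* and *Rhox13* had nearly equal means in the groups. *Dazl* (chr17:50279395-50293636, minus strand), whose protein binds germ cell mRNAs and promotes their translation, ranged from 9.47 to 10.50 log2 RPM in control and from 9.60 to 10.39 in cryptorchid libraries. Its difference was −0.04 (exact rank sum *P*=0.876) with a limma 95% interval of 0.616- to 1.55-fold. *Rhox13* (chrX:38121219-38129967, plus strand) ranged from 3.07 to 4.77 in control and from 2.39 to 4.82 in cryptorchid libraries, and differed by −0.07 (exact rank sum *P*=0.876) with an interval of 0.503- to 1.81-fold. In both groups replicate 3 was the library with the least *Rhox13*. The intervals reach well to either side of 1, so these data do not show that the genes are at equal levels.

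**Figure D3:**
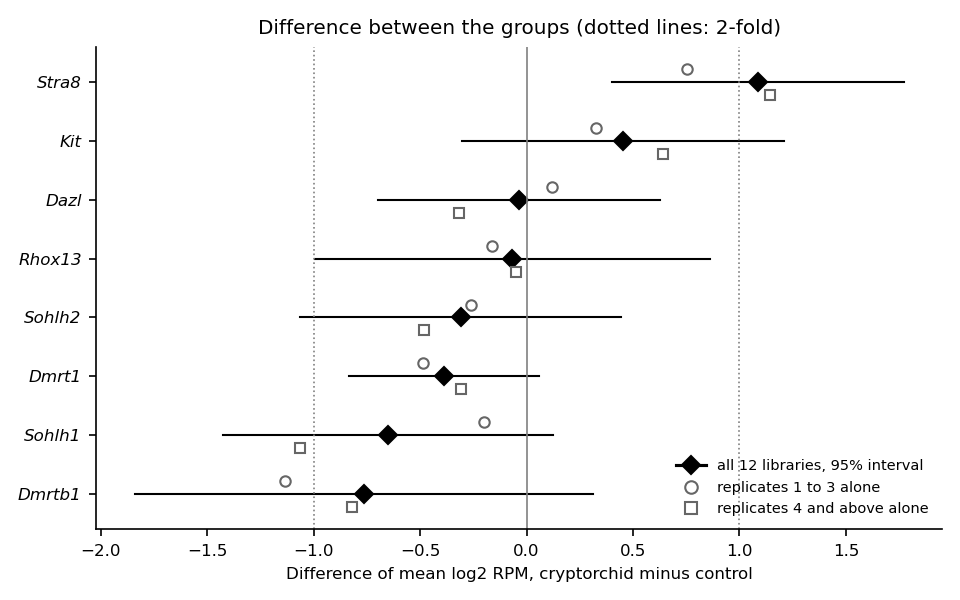
Difference of mean log2 RPM, cryptorchid minus control (x axis), for the 8 genes. Diamonds with lines give all 12 libraries with limma's 95% interval, circles replicates 1 to 3 alone and squares replicates 4 and above alone, and dotted lines mark 2-fold. The interval of *Stra8* alone lies clear of 0.

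Levels were compared between the genes per kb of exon, with the exon length of the protein-coding transcripts in GENCODE. In control libraries *Dazl* stood highest at 8.50 ± 0.420 log2 RPM per kb (SD, n=5). *Sohlh1* at 6.68 and *Dmrt1* at 6.65 followed with overlapping ranges, then *Stra8* at 5.12, *Rhox13* at 4.37, *Sohlh2* at 3.99, *Dmrtb1* at 2.71 and *Kit* last, between 1.28 and 2.92. Ranges overlapped between all neighbours in that order except *Dazl* and *Sohlh1*, and *Dmrt1* and *Stra8*. In cryptorchid libraries the order was *Dazl* (8.46), *Dmrt1* (6.26), *Stra8* (6.21), *Sohlh1* (6.03), *Rhox13* (4.31), *Sohlh2* (3.69), *Kit* (2.55) and *Dmrtb1* (1.95) in log2 RPM per kb. There the gaps were between *Dazl* and *Dmrt1* and between *Sohlh1* and *Rhox13*, so *Stra8* stood in a range with *Dmrt1* and *Sohlh1* rather than below *Dmrt1*. By mean log2 RPM in control libraries, *Dazl* was at the 99.9th percentile of the genes tested and *Kit* at the 54.0th.

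**Figure D4:**
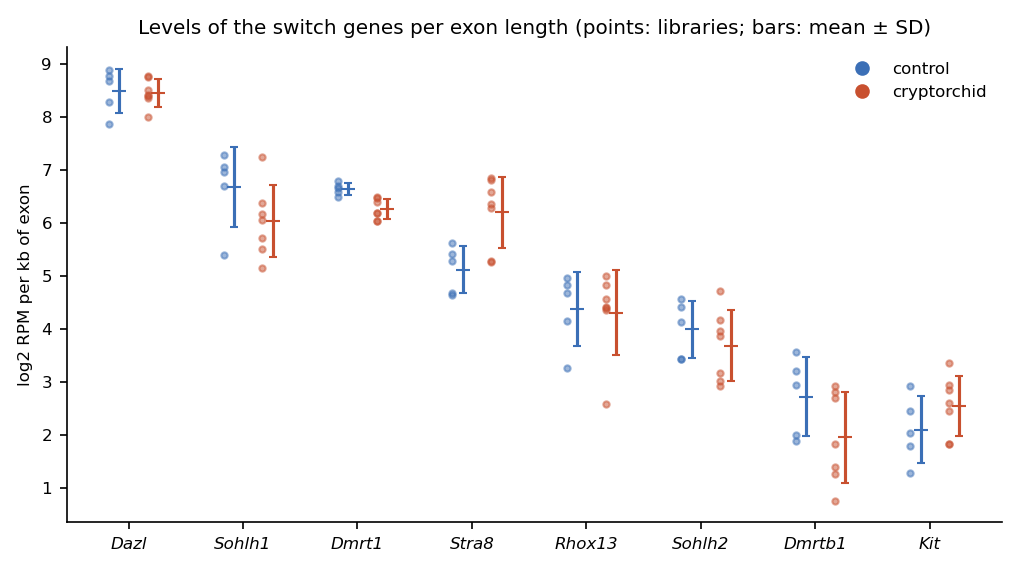
Level of each gene in log2 RPM per kb of exon (y axis), ordered by the control mean. Points are libraries (blue control, red cryptorchid) and bars are mean ± SD. *Stra8* moves from 5.12 in control to 6.21 in cryptorchid libraries, beside *Dmrt1* (6.26) and *Sohlh1* (6.03).

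The retinoic acid pathway, which triggers the switch, was uneven. Of 17 genes for receptors, binding proteins and enzymes, 16 passed the filter on low values, 1 was called higher and 2 lower, with a median log2 difference of 0.02 beside 0.10 over all genes tested. The 3 called genes act at different points of the pathway. *Crabp2*, which carries retinoic acid to its receptors, had 60, 0, 2, 2 and 0 reads in control replicates 1 to 5 and 3 to 127 reads in cryptorchid libraries. Its log2 difference was 4.37 (SE 1.07, limma adjusted *P*=0.199), and 6 of 7 cryptorchid libraries were above every control. The size of this difference depends on the value of 0.9 reads held by the 2 control libraries at 0 reads. It was 2.27 on the log2(RPM + 1) scale and 3.61 to 5.19 with a library left out, with the call kept. In set 1 alone it was 3.45 and the call was lost, and in set 2 alone it was 5.02.

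*Cyp26a1*, an enzyme that breaks down retinoic acid, was covered by 22 to 77 reads in control libraries, and cryptorchid libraries held 5 to 15 of its reads. It was lower by 1.65 on the log2 scale (log2 difference −1.65, SE 0.680, limma adjusted *P*=0.463), and 5 of 7 cryptorchid libraries lay below every control. *Rarg*, the retinoic acid receptor of type A spermatogonia, differed by −1.06 (SE 0.431, limma adjusted *P*=0.449), and *Rara*, the other main receptor of the germ line and Sertoli cells, differed by −0.89, short of 2-fold (limma adjusted *P*=0.483). The 3 calls thus rest on the unadjusted *P* and do not pass a correction for all genes. The calls of *Rarg* (without control replicate 1 or 2 or cryptorchid replicate 3, log2 differences of −0.86, −0.96 and −0.86) and *Cyp26a1* (without control replicate 4 or 5, −1.46 and −1.31) were lost, with the direction kept. *Rara* was called lower without control replicate 1 or 5 or cryptorchid replicate 2 or 3 (−1.09 to −1.01), and *Aldh1a1*, named after its value was seen, higher without cryptorchid replicate 3 (1.64). Set 1 alone gave 0 calls in this pathway. In sets 1 and 2 *Rarg* differed by −1.36 and −0.75, and *Cyp26a1* by −1.55 and −2.23. *Rarb* (2 to 332 reads), named after its value was seen, differed by 1.16 (limma adjusted *P*=0.705) and by −0.64 in set 1. It was called higher in set 2 alone (3.75) and with array weights (2.38). *Crabp2* is also made by somatic cells of the testis, whose markers are given above, and their part was not tested.

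KIT signalling showed no called gene over all 12 libraries. Of the 14 genes of the ligand, adaptors, kinases and inhibitors, all 14 were tested, 0 were called in either direction, and the median log2 difference was 0.10. *Kitl*, the stem cell factor that is made by Sertoli cells, was at 1.86 ± 1.35 log2 RPM in control (SD, n=5) and 2.29 ± 1.03 in cryptorchid libraries (SD, n=7), and differed by 0.43 (limma adjusted *P*=0.883). By the unadjusted *P* alone 1 gene passed, *Pik3ca*, a catalytic subunit of PI3-kinase, with a log2 difference of 0.82 (limma adjusted *P*=0.421), and it is named after its value was seen. The log2 difference of *Pik3ca* was 0.42 in set 1 and 1.07 in set 2. In set 2 alone it was called higher (limma adjusted *P*=0.0767).

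Of the other genes that rise or act in differentiating spermatogonia, 7 were in the table and tested, 0 were called higher and 1 lower. This was *Dnmt3b*, a de novo DNA methyltransferase, with a control mean of 7.05 ± 0.584 log2 RPM (SD, n=5) and a cryptorchid mean of 5.84 ± 0.518 (SD, n=7). The log2 difference was −1.20 (SE 0.311, limma adjusted *P*=0.215), with 5 of 7 cryptorchid libraries below every control, −0.77 in set 1 and −1.64 in set 2. The call was kept with any 1 library left out, and *Esx1* was also called lower without cryptorchid replicate 1 (−1.56). *Ccnd2*, a cyclin of the transition, differed by 0.37 (limma adjusted *P*=0.841), and the list median was −0.10. *Gm4969*, named after its value was seen, differed by 0.41 (limma adjusted *P*=0.893). It was called higher only with the replicate block described below (1.07).

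The genes of stem cells and progenitors, which the switch replaces, gave 0 calls among 18 tested, and the median was −0.11. *Gfra1* differed by 0.52 (limma adjusted *P*=0.718). By the unadjusted *P* alone 1 gene passed, *Nanos3*, an RNA-binding protein gene of progenitors, with a log2 difference of −0.97 (limma adjusted *P*=0.483), named after its value was seen. The count of 0 rested on single libraries and on the processing, and the genes that follow are named after their values were seen. Called lower were 3 genes (*Egr4*, *Nanos3* and *Neurog3*) without control replicate 3 or cryptorchid replicate 2, 2 of these (*Egr4* and *Nanos3*) without cryptorchid replicate 1, and *Egr4* without control replicate 4 or 5, while *Id4* was called higher without cryptorchid replicate 3 (1.39). Set 2 alone and the set term each gave *Egr4* and *Nanos3* as lower. With all 12 libraries kept, *Nanos3* was called lower with quantile normalization or median centring, and *Egr4* with log2(RPM + 1) or no filter. Array weights gave *Egr4*, *Nanos3* and *Neurog3* as lower. Among 13 tested relatives of the switch genes, from the DMRT, RHOX, bHLH and DAZ families, 0 were called, the median was 0.38, and *Dmrt2* differed by 0.49 (limma adjusted *P*=0.766).

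The 12 genes of meiotic prophase gave 0 calls at 2-fold (1, *Spo11*, without control replicate 4 or cryptorchid replicate 1 or 2), with 10 of 12 means higher in cryptorchid and a median log2 difference of 0.39 beside 0.10 for all genes. Their summed level was 689 to 859 RPM in control and 834 to 1199 RPM in cryptorchid libraries, so the ranges overlapped only at their ends. *Sycp1*, a transverse filament gene of the synaptonemal complex, differed by 0.26 (limma adjusted *P*=0.772). By the unadjusted *P* alone 2 genes passed and are named after their values were seen, *Sycp2*, of the axial elements, at 0.74 (limma adjusted *P*=0.352) and *Smc1b*, a meiotic cohesin, at 0.53 (limma adjusted *P*=0.498).

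**Figure D5:**
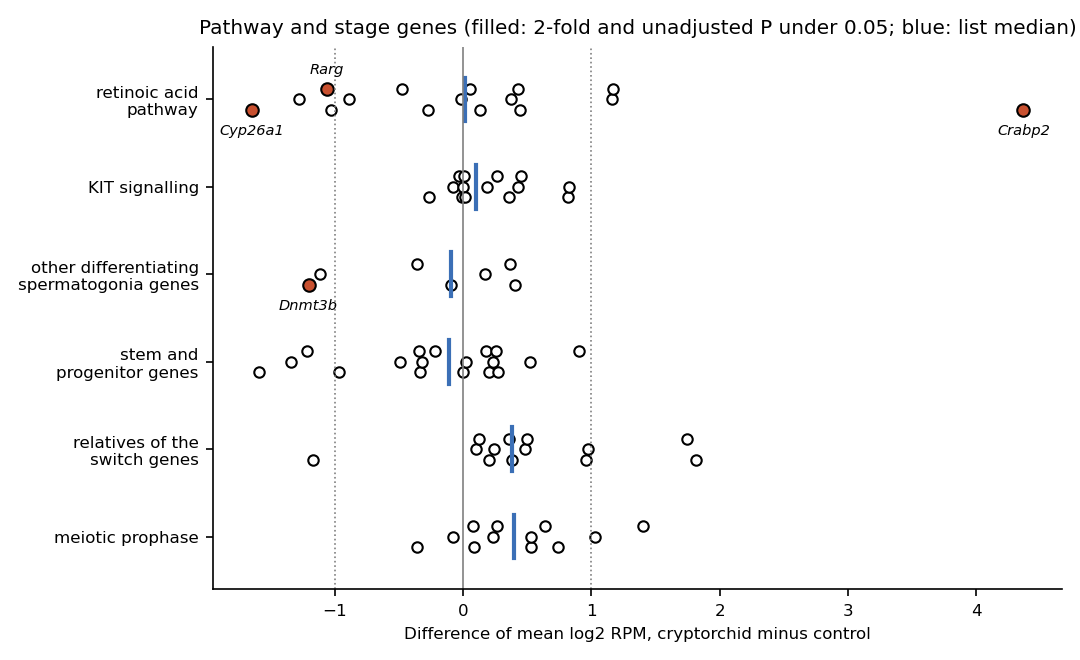
Difference of mean log2 RPM, cryptorchid minus control (x axis), for the tested genes of 6 lists (rows, 1 point per gene). Filled points are called at 2-fold and unadjusted limma *P* under 0.05, blue bars are list medians and dotted lines mark 2-fold. The 4 called genes are *Cyp26a1*, *Rarg* and *Crabp2* of the retinoic acid pathway and *Dnmt3b*.

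The genes whose log2 RPM pattern over the 12 libraries was most like that of a member are given as a description, without a *P*-value, as the libraries share group, technical set and depth. For *Stra8* these were *Dnajc10* (Pearson r=0.941), *Tex15* (r=0.935), a gene of meiotic recombination and transposon silencing in germ cells, and *Cwf19l2* (r=0.934). With the mean of each group within each set removed, r with *Stra8* was 0.896, 0.756 and 0.637 for these genes in the same order. *Sohlh1* was followed by *Akr7a5* (r=0.986), *Stk11* (r=0.968), which encodes the kinase LKB1, and *Plcxd1* (r=0.956), and r with *Akr7a5* was 0.983 with those means removed. *Rhox13* was followed most closely by *Maged1* (r=0.976, and 0.985 with the means removed).

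The other members had lower values for their nearest gene. These were *Dmrtb1* with *Gapdhs* (r=0.940), the glycolytic enzyme of sperm, *Sohlh2* with *Ercc2* (r=0.917), *Dmrt1* with *Kif17* (r=0.914), *Kit* with *Lpin3* (r=0.907) and *Dazl* with *Fam129a* (r=0.906). With the means removed r was 0.794 for *Dmrtb1* with *Gapdhs* and 0.787 for *Dmrt1* with *Kif17*. As the nearest of *Dmrtb1* is a gene of sperm, the summed spermatid levels given above bear on it, and their part was not tested. No member was among the 3 nearest genes of another member.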

How the data were processed

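Per the labels and the study's methods, RNA of sorted GFRa1+/KIT- spermatogonia was made into Smart-seq2 and Nextera XT libraries. The values deposited by the authors are log2 RPM, made by trimming, HISAT2 alignment to mm10 and SeqMonk quantitation over genes that code for protein. The submitters' processing notes name FastQC 0.11.8, Trim Galore 0.6.6 and HISAT2 2.1.0. The strand of counting is not given in the sources used here, and no member overlaps another gene in GENCODE vM21 (GRCm38). Whole reads were recovered from the steps of the deposited log2 values (100% of values under 1000 reads within 0.1 of a whole read), where a gene without reads holds the value of 0.9 reads, and they give depth and counting error only.

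The 16932 genes with log2 mean RPM above -1 were fitted with limma 3.58.1 (lmFit, eBayes with trend) in R 4.3.3, for 5 control and 7 cryptorchid libraries grouped by sample title, without covariates or a further pseudocount. Calls needed 2-fold and an unadjusted two-sided *P* under 0.05, and Benjamini-Hochberg adjustment ran over all genes tested. Members were also tested with the exact two-sided Wilcoxon rank sum over all 792 splits, or over the 300 that keep the sets apart, in Python 3.11.15 with scipy 1.17.1. The fits were tested on simulated data. All 31 replicate pairs within groups exceeded sampling noise (chi-square per degree of freedom 12.8 to 253), and none was merged. The members and lists were chosen with earlier results of these data known. A gene of 1 list is not reported here and is left out of its list. Named genes are all members, up to 4 called genes of each list and its first gene, and the 3 genes with the highest r for each member with at least 20 reads in the median library. Others are marked as named after their values were seen. Alternatives were other scalings, pseudocounts, filters, voom, array weights, the replicate block, a set term, each set alone and each library left out.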

Additional observations from a re-analysis of the deposited data

Results flagged for a closer look

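*Rhox13* was at 2.39 log2 RPM (44 reads) in cryptorchid replicate 3, while the nearest cryptorchid library was at 4.17 and the highest at 4.82. The gap to the nearest library took up 0.734 of the range of the group, above the limit of Dixon's test at 95%. Of the 16 groups of values checked (8 genes in 2 conditions) this was the 1 that passed, and chance flags about 1 in 20 such groups. Control replicate 3 was also the lowest of its group, at 3.07 log2 RPM. Without cryptorchid replicate 3 the log2 difference of *Rhox13* was 0.22 (limma adjusted *P*=0.844) in place of −0.07.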

How the results depend on the processing

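The number of genes called was 1002 (603 higher and 399 lower). It was 1585 with array weights, 1678 with the replicate block, 632 in set 1 alone and 829 to 1248 with each library left out. Quantile normalization gave 457 higher and 542 lower, so the split between directions depends on the scaling. At an adjusted *P* under 0.05, 1 gene was higher and 1 lower in limma's fit, against 252 and 224 with array weights, 391 and 594 with the replicate block and 15 and 31 with the set term. The number of members called was 1, and it was 0 with the set term or in set 1 alone, 2 in set 2 alone and 0 to 1 with each library left out.

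Same-numbered libraries correlated at r=0.0488 to 0.411 in their deviations from the group means, and 4 of 5 controls correlated best with their own number, a hint in the data of something shared by number. Replicate 5 was at 0.0488, under the 0.1 set for every pair, and the mouse behind each library is not stated, so the fit was kept without the block. With the replicate block over replicates 1 to 5, the log2 difference was 0.59 for *Kit*, −0.41 for *Sohlh1*, −0.42 for *Dmrt1* and −1.11 for *Dmrtb1*, each with an unadjusted limma *P* under 0.05, and *Stra8* was at 0.98 with an adjusted *P* of 0.00643. There *Stra8* fell just short of 2-fold and *Dmrtb1* was the 1 member called. The block gave 6 of 6 spermatid genes called lower, and 2 stem and progenitor genes. With array weights it was −0.87 for *Sohlh1* and −0.38 for *Dmrt1* and both passed an unadjusted 0.05, and the adjusted *P* of *Stra8* was 0.0178. *Stra8* was at 0.75 in set 1 alone and did not pass, *Sohlh1* at −1.06 in set 2 alone and *Dmrtb1* at −0.99 with the set term, where it passed an unadjusted 0.05.

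The direction of *Dazl* turned in set 1 alone (0.12), and with a library left out its log2 difference ran from −0.19 to 0.0633 and that of *Rhox13* from −0.34 to 0.22. The range for *Sohlh1* was −0.97 to −0.50. The exact rank sum *P* with a library left out ran from 0.0173 to 0.109 for *Stra8*, 0.0424 to 0.412 for *Sohlh1*, 0.0424 to 0.164 for *Dmrtb1*, 0.412 to 1.0 for *Dazl* and 0.527 to 1.0 for *Rhox13*, and it was 0.00667 for *Dmrtb1* with exchange within sets. *Kitl* turned to −0.27 in set 1 alone, *Ccnd2* to −0.21 and *Dmrt2* to −0.24 in set 2 alone, and with a library left out *Ccnd2* ran from −0.0266 to 0.64. *Kit*, *Stra8*, *Sohlh1*, *Sohlh2*, *Dmrt1* and *Dmrtb1* kept their direction in all 23 alternatives. The cause of these differences was not tested. Set 1 alone compares 3 with 3 libraries, and the 24 to 434 reads of *Dmrtb1* limit its precision.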
